A study of Macaca mulatta with 304 samples.

Results

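EDA2R, a gene on the X chromosome that encodes a receptor of the tumor necrosis factor receptor family, was followed in whole blood of rhesus macaques whose upper thorax was irradiated. It is 1 of 21070 genes in the deposited count table, and its row was taken in every sample. The gene was chosen on measured values. It stood out against control in these samples, and the published work lists it for the Day 3 model of survival and the Day 9 model of pleural effusion. The paper reports significant accuracy for survival only with pooled days, and EDA2R is not listed for the pooled models. Its change from control and its level by length of follow-up are therefore described without a test, while dose, sex and the order of the animals, which did not enter the choice, were tested.

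EDA2R binds the A2 isoform of ectodysplasin A, a ligand known from the growth of hair, teeth and sweat glands, and signals through TRAF adaptors to NF-kappa B. EDAR, its relative, binds the A1 isoform and needs the adaptor EDARADD. EDA2R is also known as a gene that the tumor suppressor p53 switches on after DNA damage in several cell types, which is why it is set here beside other p53 targets.

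The animals were of the Chinese sub-strain. The lower dose group (LD, 9.8 Gy) held 12 animals, 6 females and 6 males, and the higher dose group (HD, 10.7 Gy) held 16 animals, 8 females and 8 males. Control samples were drawn on Day -2 from the same animals, 12 LD and 12 HD, so that 4 HD animals had no control of their own, and there was no group without irradiation. Both groups received the analgesics tramadol or buprenorphine for some weeks, starting after the Day 3 draw, and dexamethasone when breathing became fast, and before irradiation all were given an antiemetic, ondansetron, and ketamine with xylazine. These treatments and irradiation cannot be told apart. Draws were scheduled from Day 3 to Day 270, and 8 further samples came from unscheduled days. The last draw fell between Day 30 and Day 90 in HD males, between Day 40 and Day 270 in HD females, between Day 120 and Day 270 in LD males, and between Day 102 and Day 270 in LD females.

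Totals ranged from 2840219 to 23638161 counts per sample, with a median of 11697186 in the control samples, 12436548 on Day 3, and 6250146 (LD) and 7260952 (HD) on Day 30 to 60. Sample numbers in the labels fell into 3 library series, called A, B and C here. Series A held 20 of the 24 control samples and 100 samples of Day 3 to 21, against 8 in B and 24 in C, while all samples after Day 21 were of series B or C. Later changes from control and library series can thus be told apart only in the 4 HD animals whose control was of series C. On Day 21 all LD samples were of series A and all HD samples of series B or C, so that dose and series cannot be told apart on that day. Markers of B, T, NK and dendritic cells, monocytes, neutrophils, red cells and platelets were all detected, as in blood, and 1 sample, of HD male B2007 on Day 40, stood apart with a summed red cell marker level of 323905 CPM (counts for each 1000000 of the total scaled by the upper quartile).

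In the rhesus annotation (Mmul_10), EDA2R lies on the minus strand of chrX:63547115-63592375, a span of 45261 bases with 7 transcripts. The curated transcript has 5 exons and 891 coding bases. Because EDA2R is a known p53 target, the letters of the p53 element were searched within 1000 bases on either side of the gene's far start, after an earlier look had shown a match there. The form searched is a run of 20 bases, made of a unit that is repeated directly. Forms with bases between the units were not searched. The unit is 3 purines, C, 2 bases that are A or T, G and 3 pyrimidines. The pattern reads the same on both strands. The C and the G of each unit had to match, and 1 base outside the pattern was allowed at the other positions. The match, in capitals below, lies at chrX:63591803-63591822, which is 553 to 572 bases downstream of the start on the gene's strand. It is intronic, since it lies within the span of 4 of the 7 transcripts and within an exon of 0 of them. The far start is that of 2 transcripts, and the curated one, at chrX:63548657-63569127, starts further in, so that the match lies outside it. Its base outside the pattern is at position 15, counted from the 5′ end of the match. The 100 bases of chrX:63591763-63591862 are shown 5′ to 3′ on the gene's strand, since they hold the match.
EDA2R intron: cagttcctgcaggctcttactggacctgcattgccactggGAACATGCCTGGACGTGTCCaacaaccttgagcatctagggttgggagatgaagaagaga
Such a match was found around the start of 20 of 13655 tested genes searched (0.146%), EDA2R among them, and of 28 searched genes of the p53 list it was found at CCNG1, which encodes cyclin G1. A match in letters is a description of this window and no evidence of binding.

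EDA2R was low in blood before irradiation and higher in all 24 animals drawn on Day 3. Over all samples its count had a median of 9, with 11 samples at 0 and 264 samples (86.8%) at 3 counts or more. In the 24 control samples the level ranged from 0 to 1.27 CPM around a median of 0.618 CPM, from 0 to 16 counts. The control at 0 was that of HD male B2005 in series C, where a count of 0 allows up to 0.411 CPM (3 counts; limits of this kind cover counting error only).

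On Day 3 the level ranged from 1.83 to 10.2 CPM around a median of 4.22 CPM, on 21 counts or more. All 24 animals were above their own control, and the lowest Day 3 sample lay above the highest control sample. The highest were LD males B1005 (10.2 CPM) and B1006 (9.30 CPM), followed by HD male B2001 (7.0 CPM, 87 counts). The log2 fold change from own control was 2.72 (SE 0.18, edgeR, animal as block, n = 24), the 4th highest of 13751 tested genes. In whole blood, a change in the share of cells that express a gene and a change in its RNA per cell cannot be told apart.

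Over the next weeks the level came down in most animals. The median was 2.31 CPM on Day 6 (0.743 to 6.13, n = 28), 1.68 CPM on Day 9 (0.462 to 9.83, n = 28) and 1.02 CPM on Day 15 (0.356 to 2.38, n = 24). From Day 3 to Day 6 it was lower in 21 of 24 animals, from Day 6 to Day 9 in 21 of 28, and from Day 9 to Day 15 in 21 of 24; from Day 15 to Day 21 it was lower in 14 of 24. Log2 fold changes from own control were 1.95 (SE 0.22) on Day 6, 1.65 (SE 0.23) on Day 9, 0.88 (SE 0.18) on Day 15 and 0.70 (SE 0.23) on Day 21. On Day 15, 10 of 24 samples lay above the highest control sample, and on Day 21 10 of 28 did.

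**Figure D1:**
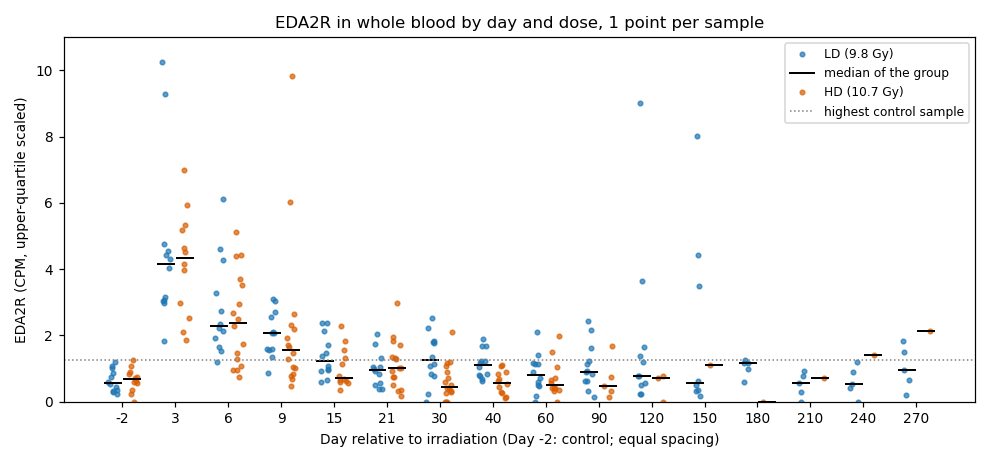
EDA2R level in CPM (linear axis) in each of the scheduled samples by day and dose, LD in blue and HD in orange, with a black bar at the median of each group and a dotted line at the highest control sample (1.27 CPM). All 24 samples of Day 3 lie above the dotted line, the levels come down by Day 15, and single LD samples stand high again on Day 120 and 150.

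Not every animal followed this course. The highest draw fell on Day 3 in 17 of 24 animals, on Day 6 in 2, on Day 9 in 2, and on Day 90, 120 and 150 in 1 each. B2005 had 5.32 CPM on Day 3, 4.39 CPM on Day 6 and 9.83 CPM on Day 9 before it dropped to 0.675 CPM on Day 15 and stood at 2.97 CPM on Day 21. All of its samples were of series C, and its Day 9 value rested on 52 counts. HD male B2003 was the next highest on Day 9, at 6.03 CPM.

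From Day 30 to Day 90 the level lay close to control. Medians were 0.816 CPM on Day 30 (0 to 2.52, n = 28), 0.820 CPM on Day 40 (0.126 to 1.90, n = 24), 0.625 CPM on Day 60 (0 to 2.1, n = 24) and 0.824 CPM on Day 90 (0.141 to 2.45, n = 17). These ranges overlap that of the control samples. Log2 fold changes from own control were 0.44 (SE 0.32), 0.41 (SE 0.24), 0.16 (SE 0.28) and 0.51 (SE 0.29). In the 4 HD animals whose samples and control were of 1 series, the sign turned: the value was -0.63 (SE 1.05) on Day 30 and -0.33 (SE 0.88) on Day 40. Over the 12 HD animals with a control, mean changes in log2 CPM were -0.33 ± 1.44 and -0.12 ± 1.13 (SD) on these days. Dose and library series thus cannot be told apart in the turned sign.

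Ranked by mean log2 CPM, the scheduled days ran from Day 3 (2.08 ± 0.61, SD, n = 24) over Day 6 (1.33 ± 0.74, n = 28) and Day 9 (0.99 ± 0.82, n = 28) down to control (-0.34 ± 0.66, n = 24) and Day 210 (-0.58 ± 0.90, n = 6). Only between Day 3 and Day 6 was the gap between neighbours in this order, 0.75, larger than their pooled SD of 0.68. All other neighbours differed by less than the spread between samples. Over the study's windows, with counts summed per animal, the log2 fold change was 1.83 (SE 0.17, n = 24) for Day 3 to 21, 0.40 (SE 0.19, n = 24) for the days after Day 21 up to Day 90, and 0.84 (SE 0.32, n = 14) after Day 90. In the same-series animals, all HD, the middle window stood at -0.27 (SE 0.74, n = 4).

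On Day 120 and 150 the median lay close to control while a few LD animals stood high. It was 0.780 CPM on Day 120 (0 to 9.02, n = 14) and 0.621 CPM on Day 150 (0.183 to 8.02, n = 9). The highest was LD female B1506, with 9.02 CPM (62 counts) on Day 120 in series B and 8.02 CPM (43 counts) on Day 150 in series C, against 1.23 CPM on Day 90 and 0.853 CPM in its control. It was back at 1.33 CPM on Day 172, its last draw. LD females B1502 and B1505 stood at 4.42 CPM (11 counts) and 3.50 CPM (19 counts) on Day 150. The B1502 sample had the lowest total of all samples, 2840219 counts, and this animal stood at 0.791 CPM on Day 120 and 0.976 CPM on Day 180. LD male B1005, the highest animal of Day 3, stood at 3.65 CPM (15 counts) on Day 120, its last draw.

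These late values rested on few animals. Without B1506 the log2 fold change from own control went from 0.92 (SE 0.45, n = 12) to 0.60 on Day 120, from 1.28 (SE 0.49, n = 9) to 0.94 on Day 150, and from 0.84 to 0.64 after Day 90. Without the animal as block the values of Day 120 and 150 were 1.42 and 1.77. In B1506 on Day 120 the summed markers of neutrophils (17376 CPM) and of monocytes (4809 CPM) lay above the other 10 LD animals of that day, which reached 12756 and 4261 CPM. Its platelet markers lay above them too, at 8953 against at most 6741 CPM, and its T cell markers below, at 404 against at least 521 CPM. On Day 150 the neutrophil and monocyte lists were again above the other 7 LD animals, at 12375 against at most 8638 CPM and at 4639 against at most 3723 CPM. Their part in these EDA2R levels was not tested.

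From Day 180 the series was down to 6 animals, 5 LD and HD female B2502. Medians were 1.07 CPM on Day 180, 0.639 CPM on Day 210, 0.712 CPM on Day 240 and 1.24 CPM on Day 270, and log2 fold changes were 0.47 (SE 0.46), -0.12 (SE 0.62), 0.18 (SE 0.57) and 0.93 (SE 0.52). B2502 had 0 counts on Day 60, 120 and 180, but 0.485 CPM (3 counts) on Day 90 and 1.10 CPM (9 counts) on Day 150. It then had 0.719 CPM on Day 210, 1.41 CPM on Day 240 and 2.14 CPM (9 counts) on Day 270, against 0.238 CPM before irradiation. Each of its counts was 9 or fewer from Day 60 on. Without it the value of Day 240 turned to -0.29, and that of Day 210 turned to 0.25 without LD female B1505.

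Of the animals that ended early, 8 had a draw on an unscheduled last day. EDA2R in CPM was lower than on the draw before in 5 and higher in 3. Of the 3, B2004 and B1001 had the same count on both draws (5 and 9), and B2504 went from 5 to 7 counts. Thus a rise was not shown. Of the 5, counts went from 18 to 12 in B2501, 6 to 1 in B2506, 2 to 1 in B1002 and 43 to 10 in B1506. In LD female B1504 EDA2R went from 2.45 CPM (16 counts) on Day 90 to 0.164 CPM (1 count) on Day 102. Among HD animals on Day 9, the 12 last drawn by Day 90 ranged from 0.677 to 9.83 CPM around a median of 1.68 CPM, and the 4 followed longer ranged from 0.462 to 1.92 CPM around 0.949 CPM. On Day 3 the HD medians were 4.34 CPM (n = 10) and 4.23 CPM (n = 2). The 4 were all female and all HD males were among the 12, so follow-up and sex cannot be told apart here. Among LD animals on Day 9, the 7 last drawn before Day 270 ranged from 1.34 to 3.10 CPM around 2.06 CPM. The 5 LD animals drawn to Day 270 ranged from 0.882 to 2.71 CPM around 2.08 CPM. These groups overlapped. They are given without a test, since a place in the published Day 3 model of survival entered the choice of the gene.

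Did the early change differ between the doses? On Day 3 LD animals ranged from 1.83 to 10.2 CPM around a median of 4.16 CPM, and HD animals from 1.87 to 7.0 CPM around a median of 4.34 CPM. The ranges overlap almost wholly. The mean change from own control was 2.46 ± 0.73 (SD, log2 CPM, n = 12) in LD and 2.38 ± 0.98 (n = 12) in HD, a difference of -0.08 (95% interval -0.81 to 0.65; two-sided permutation test, p = 0.824, adjusted p = 0.927 over 9 days).

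Over Day 3 to 21 the interaction of irradiation with dose was -0.14 on the log2 scale (SE 0.37, edgeR, animal as block, p = 0.705, adjusted p = 0.973 over 13751 genes). In this test 0% of the genes were called, that is, had an adjusted p no higher than 0.05 with a change of 1.5-fold or more. There were 761 genes at an unadjusted p under 0.05, and DESeq2 also called 0 genes, with 871 under 0.05. The interval on Day 3 reaches from 0.81 lower to 0.65 higher in HD, so the changes were not shown to be equal. HD animals varied more than LD animals on Day 9, with an SD of the change of 1.52 against 0.61, and B2005 is the outermost of the former. All LD samples of that day were of series A, while HD samples were of series A and C. B2005 and B2003, the highest on that day, were of series C, with totals of 4919383 and 4673259 counts. The control of B2005 had 0 counts. Dose, series and depth cannot be told apart in this spread.

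On Day 30 to 60 the doses stood apart more. On Day 30, when all samples were of series C, LD animals ranged from 0 to 2.52 CPM around a median of 1.25 CPM (n = 12), and HD animals from 0 to 2.1 CPM around a median of 0.453 CPM (n = 16). On Day 40 LD animals ranged from 0.634 to 1.90 CPM around 1.10 CPM, and HD animals from 0.126 to 1.11 CPM around 0.580 CPM (n = 12 each). On Day 60 the medians were 0.807 CPM in LD and 0.501 CPM in HD (n = 12 each). The groups overlapped on each day, with HD the lower of the medians, and the plot of the single animals on these days shows the least overlap on Day 40.

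Against own control, the mean log2 CPM change on Day 30 was 0.66 ± 0.97 in LD and -0.33 ± 1.44 in HD, and on Day 40 it was 0.71 ± 0.57 and -0.12 ± 1.13 (SD, n = 12 each). The differences, -1.0 (95% interval -2.04 to 0.04) and -0.83 (95% interval -1.59 to -0.08), had p = 0.0559 and p = 0.0325 in two-sided permutation tests, and an adjusted p of 0.251 each over 9 days. Counts summed over Day 30, 40 and 60 gave an interaction with dose of -0.91 (SE 0.39, edgeR, animal as block, p = 0.0270, adjusted p = 0.151 over all genes), which misses the threshold. In this comparison 0.560% of the tested genes were called lower in HD.

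**Figure D2:**
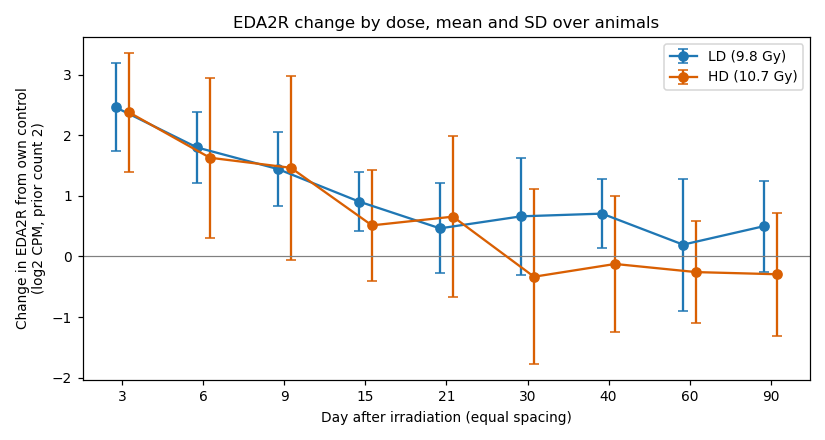
Mean change of EDA2R from own control (log2 CPM, prior count 2) by day, with the SD over animals as bars, LD in blue and HD in orange (12 animals each up to Day 40). The lines run together through Day 9, and on Day 30 and 40 LD means of 0.66 and 0.71 face HD means of -0.33 and -0.12.

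Levels on the same days, which add the 4 HD animals without a control, were compared after these values had been seen. Means of Day 30 to 60 per animal ranged from 0.426 to 1.87 CPM around 0.974 CPM in LD (n = 12), and from 0.167 to 1.38 CPM around 0.657 CPM in HD (n = 16). Again the groups overlapped. On summed counts HD lay 0.81 lower on the log2 scale (SE 0.26, edgeR, p = 0.00417, adjusted p = 0.0301), in a comparison in which 0.734% of the genes were called lower in HD.

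The call was lost without LD male B1005 (-0.72, adjusted p = 0.0694), without LD female B1506 (-0.73, adjusted p = 0.0523), and in series C alone (-0.80, SE 0.31, adjusted p = 0.0843). As means of log2 CPM per animal, the difference was -0.66 over all series (n = 16 and 12, permutation p = 0.0106), -0.65 in series C (n = 16 and 12, permutation p = 0.0209) and -0.40 in series B (n = 5 and 8, exact permutation p = 0.118). On Day 40 alone the difference in level was -0.84 in log2 CPM (95% interval -1.33 to -0.35; two-sided permutation test, p = 0.00152, adjusted p = 0.0152 over 10 days). It was -0.91 on Day 30 (p = 0.0323, adjusted p = 0.162) and -0.22 on Day 60 (p = 0.553, adjusted p = 0.789). Means per animal over Day 30 to 60 differed by -0.86 between the doses in females (n = 8 and 6, exact permutation test, p = 0.0260) and by -0.46 in males (n = 8 and 6, exact permutation test, p = 0.214); whether the sexes differed in this was not tested. Before irradiation the dose groups differed by 0.05 (SE 0.34, edgeR, p = 0.883, adjusted p = 0.979).

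**Figure D3:**
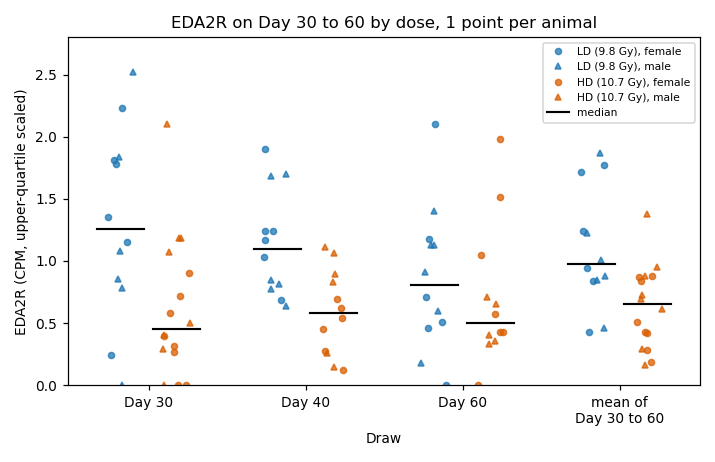
EDA2R level in CPM (linear axis) on Day 30, 40 and 60 and its mean over these days, 1 point per animal, LD in blue and HD in orange, circles for females and triangles for males, with a black bar at the median. On Day 40 the LD median of 1.10 CPM faces a HD median of 0.580 CPM, and on all days the groups overlap.

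Medians of some summed cell markers also differed between the doses on these days. The ranges overlapped, the samples include repeated draws of the same animals, and these differences were not tested. Summed neutrophil markers ranged from 576 to 6564 CPM around 2487 CPM in LD samples (n = 36) and from 1355 to 18132 CPM around 4209 CPM in HD samples (n = 40). Red cell markers had medians of 6445 CPM in LD and 10751 CPM in HD, with B2007 at the top. T cell markers had medians of 1402 and 1108 CPM, and monocyte markers of 1830 and 2043 CPM. Their part in the dose difference of EDA2R was not tested.

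EDA2R lies on the X chromosome, and females and males were compared for that reason. Before irradiation females ranged from 0.238 to 1.19 CPM around a median of 0.695 CPM, and males from 0 to 1.27 CPM around 0.551 CPM. The ranges overlap, and the difference was 0.23 (female minus male, log2, SE 0.33, edgeR, p = 0.506, adjusted p = 1.00, n = 12 and 12), in a comparison that called 0.0654% of the genes. The change over Day 3 to 21 was lower in females by a log2 difference of -0.41 (SE 0.36, edgeR, animal as block, p = 0.263, adjusted p = 1.00). Here edgeR called 0% of the genes, with 0.894% at an unadjusted p under 0.05, and DESeq2 called 0, with 1.09% under 0.05.

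By day, mean changes were lower in females than in males on Day 3 to 60 and higher on Day 90. On Day 3 they were 2.13 ± 0.59 in females and 2.71 ± 0.98 in males (SD, log2 CPM, n = 12 each), a difference of -0.58 (95% interval -1.27 to 0.10; two-sided permutation test, p = 0.0919, adjusted p = 0.363). No day passed the adjustment over 9 days, and the lowest adjusted p was 0.363. The 3 highest samples of Day 3 were all from males.

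Animals partly kept their order. Mean log2 CPM over Day 3 to 21 and over Day 30 to 90 correlated across 28 animals (Pearson r = 0.49, permutation p = 0.00756; Spearman rho = 0.55, permutation p = 0.00308; adjusted p = 0.0227 and 0.00924 over 3 relations). Without the 2 animals farthest from the median of the early level, r was 0.41. The means cover unequal days: 4 HD animals had no draw on Day 3 or Day 15, and animals that ended early had fewer later days. Within dose, r was 0.67 in LD (n = 12, permutation p = 0.0202) and 0.34 in HD (n = 16, permutation p = 0.200), and in the 20 animals with a series A control, which had every early draw, it was 0.67 (permutation p = 0.00150).

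Relations with the level before irradiation did not pass the adjustment. Control level and early level gave r = -0.02 (permutation p = 0.930, rho = 0.06, permutation p = 0.762, n = 24), and control level and the level of Day 30 to 90 gave r = 0.12 (permutation p = 0.562, rho = 0.16, permutation p = 0.445, n = 24). Without the 2 animals farthest from the median of the control level, these were 0.29 and 0.33, and in the 20 animals with a series A control 0.32 (permutation p = 0.168) and 0.37 (permutation p = 0.112). Whether these relations differ from that of the early and later levels was not tested. Within dose, control level gave r = 0.48 in LD (permutation p = 0.110) and -0.12 in HD (permutation p = 0.760) with the level of Day 30 to 90, n = 12 each. Control and early level gave r = 0.50 in LD (permutation p = 0.0978) and -0.38 in HD (permutation p = 0.241), n = 12 each, and the HD value was -0.39 without the 2 animals farthest from the median control, B2005 among them.

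Which genes had the most similar pattern? By Pearson r over log2 CPM less the animal's mean in all samples, the 10 highest of 13750 other tested genes were LPL (0.52), C1QC (0.50), C1QB (0.48), C1QA (0.47), TYMS (0.46), PCNA (0.45), PECAM1 (0.43), FCGR3 (0.41), LGMN (0.39) and SASH1 (0.38). These are descriptions across samples that share libraries and animals. LPL encodes lipoprotein lipase, and the 3 C1Q genes encode the chains of complement C1q, which macrophages and related cells make. TYMS and PCNA serve DNA synthesis, FCGR3 encodes the low-affinity IgG receptor CD16, LGMN a lysosomal protease and PECAM1 an adhesion molecule of endothelium and blood cells.

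Each of these 10 genes was higher on Day 3 than before irradiation in 23 or 24 of 24 animals. They were picked by their r to EDA2R over these same samples, Day 3 included, so a rise on that day follows in part from the choice. Mean changes in log2 CPM were 3.13 ± 0.73 for C1QA, 3.03 ± 0.61 for C1QB, 3.19 ± 0.50 for C1QC, 2.25 ± 0.55 for LPL and 1.32 ± 0.62 for TYMS (SD, n = 24), and each of these was higher in 24 of 24 animals. C1QA had returned to -0.00 ± 0.73 by Day 21, where EDA2R stood at 0.56 ± 1.06 and LPL at 0.96 ± 0.62. Likeness was higher within series A (120 samples), with r of 0.81 for LPL, C1QB, C1QC and C1QA, than within series C (150 samples), where LPL had r = 0.29, C1QA 0.22 and LGMN 0.01. Series A holds most samples of Day 3 to 21 and is deeper, with a median total of 12313370 counts against 6904804 in series C; the part of days and of depth in this gap was not tested.

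At the other end were LOC106998629 (r = -0.51), KIAA0319 (-0.49) and LOC114674461 (-0.47). Their mean log2 CPM changes on Day 3 were -1.57 ± 0.62, -1.47 ± 0.49 and -1.42 ± 0.50 (SD), lower than control in all 24 animals. A fall on Day 3 likewise follows in part from how these genes were picked.

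**Figure D4:**
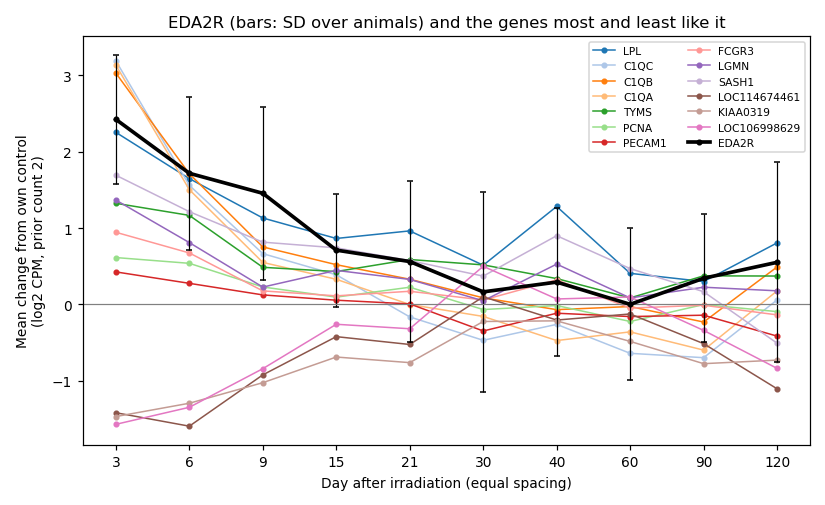
Mean change from own control in log2 CPM by day for EDA2R (thick black line, bars for the SD over animals) and for the 10 genes with the highest and the 3 with the lowest Pearson r to it (thin lines). EDA2R, LPL and the C1Q genes start between 2.25 and 3.19 on Day 3 and come down to Day 15, the C1Q genes sooner. On Day 9 C1QA, C1QB and C1QC stand at 0.55, 0.75 and 0.66, EDA2R at 1.45 and LPL at 1.13. The 3 lowest genes start below -1.4.

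Blood cell markers also shifted by Day 3. Summed platelet markers went from a median of 1477 CPM (803 to 4133) to 3826 CPM (1826 to 8884), monocyte markers from 1712 CPM (852 to 4325) to 2604 CPM (1668 to 4015), and B cell markers from 1411 CPM (333 to 2522) to 494 CPM (191 to 1168). T cell markers stayed near their control median of 1539 CPM, at 1476 CPM. Within animals, over all samples, EDA2R had a Pearson r of 0.27 with platelet, 0.19 with monocyte, 0.18 with red cell, -0.23 with B cell and -0.26 with dendritic cell markers. None of the markers was at 0 in all samples of a group. Their part in the course of EDA2R was not tested.

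Some other targets of p53 rose on Day 3 too, by less. The list, set up with earlier results of these data known, held 30 genes, of which 29 passed the filter of 3 counts in 80% of samples; SPATA18 did not, with 3 counts or more in 1 sample. On Day 3, 9 of the 29 were called higher and 0 lower (edgeR), against 6.89% of all tested genes called higher and 4.62% called lower, and the list's median log2 fold change was 0.29 against -0.06 over all genes. The list is no independent evidence of a direction, since BAX and CDKN1A are also in the published models of these samples.

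The largest was CDKN1A, the p21 inhibitor of the cell cycle, at a log2 fold change of 1.59 (SE 0.08, edgeR, adjusted p = 1.10e-15). Next came PHLDA3, an inhibitor of AKT, at 1.15 (SE 0.10, adjusted p = 5.97e-11), the death receptor gene TNFRSF10B at 1.02 (SE 0.10, adjusted p = 4.82e-10) and the DNA damage sensor gene DDB2 at 0.95 (SE 0.09, adjusted p = 8.00e-10). BBC3 and BAX, which promote apoptosis, stood at 0.77 (SE 0.06) and 0.66 (SE 0.05). EDA2R, at 2.72, lay above each member of the list.

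Over all samples, r to EDA2R within animals had a median of 0.09 over the 29 genes and of -0.02 over all genes. PCNA was the list's highest, and 1 of the 50 most similar genes was on the list. Within series A, r was 0.76 for TNFRSF10B, 0.74 for DDB2, 0.71 for BBC3 and 0.69 for CDKN1A, while in series C these were 0.05, -0.11, 0.02 and 0.06.

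In the later windows the list's genes went separate ways; those named here for these windows, CDKN1A aside, were picked after their values were seen. Over Day 3 to 21, 3 were called higher and 0 lower, where 5.79% of all genes were called higher and 1.75% lower: CDKN1A (0.70, SE 0.06), GADD45A (0.83, SE 0.10) and RPS27L (0.72, SE 0.15). In the middle window only TP53INP1 was called, higher, at 0.68 (SE 0.07), against 4.48% higher and 1.27% lower over all genes, and the list's median of -0.01 turned to 0.02 under TMM scaling. CDKN1A stood at 0.57 (SE 0.07) there, under the fold threshold, and was called under TMM scaling and by DESeq2.

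After Day 90, 6 were called higher and 3 lower, against 14.0% higher and 18.5% lower over all genes. With TMM scaling 2270 genes were called higher and 1887 lower over all genes, in place of 1919 and 2548, and the median log2 fold change of all genes moved from -0.13 to -0.03, and with DESeq2 to -0.01. Higher were TP53INP1 (1.58, SE 0.21), CDKN1A (0.97, SE 0.11), MDM2 (0.91, SE 0.26), which encodes the p53 ubiquitin ligase, BBC3 (0.84, SE 0.12), RRM2B (0.78, SE 0.18) and GADD45A (0.77, SE 0.23). Lower were PHLDA3 (-1.36, SE 0.17), AEN (-1.10, SE 0.14) and POLH (-0.75, SE 0.11). PHLDA3, the second of the list on Day 3, was thus below control when EDA2R stood at 0.84. No gene of the list was called in all 3 windows, but CDKN1A was under TMM scaling, by DESeq2 and without the animal as block.

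**Figure D5:**
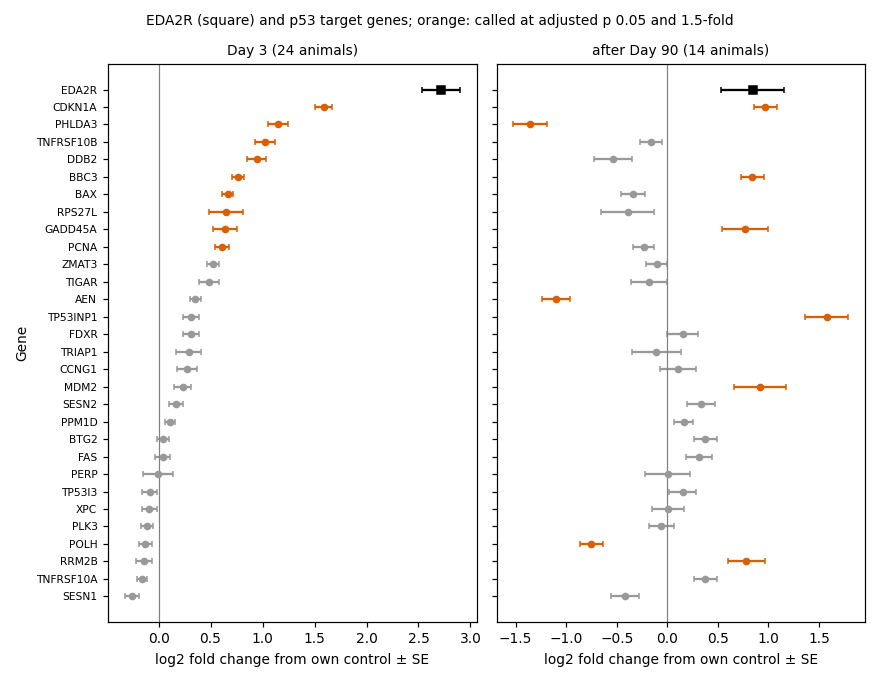
Log2 fold change from own control with SE (edgeR) for EDA2R (black square) and 29 p53 target genes on Day 3 (left, 24 animals) and after Day 90 (right, 14 animals), in the order of Day 3, with called genes in orange. On Day 3 EDA2R, at 2.72, lies to the right of CDKN1A at 1.59 and of all others; after Day 90 the called genes lie on both sides of 0.

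On Day 3 no tested partner of the receptor was called. EDA, the ligand gene, reached 3 counts in 7 samples and had at most 6, so that a change in it was not detectable at this depth. EDAR stood at a log2 fold change of -0.12 (SE 0.10) on Day 3 and EDARADD at -0.05 (SE 0.12), neither called. Of the 17 tested genes of the list of 20 receptors, adaptors and NF-kappa B members, 0 were called on Day 3 by edgeR and 0 by DESeq2, with a median of -0.10. An adjusted p under 0.05 was reached by 7 of the 17, below the fold threshold. On that day 6.89% of all tested genes were called higher and 4.62% lower, and 8142 of 13751 had an unadjusted p under 0.05. The share of all genes at an adjusted p under 0.05 is not given here, so the 7 of 17 has no like figure beside it.

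TNFRSF19, a related receptor, missed the filter, with a median of 6 and a highest value of 57 counts. Fitted without the filter, it stood at 0.91 (SE 0.19, edgeR, adjusted p = 2.51e-04) on Day 3, at 0.38 (SE 0.16, adjusted p = 0.0714) over Day 3 to 21 and at -0.56 (SE 0.40, adjusted p = 0.293) after Day 90. It was the 1 list gene called on Day 3 in that fit.

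Later, EDAR fell. Its log2 fold change was -0.78 (SE 0.07, edgeR, adjusted p = 7.00e-09) in the middle window and -1.46 (SE 0.24, adjusted p = 8.12e-05) after Day 90. In the middle window it was the only call of the list, where 1.27% of all tested genes were called lower. On Day 30 it was above own control in 0 of 24 animals, at -0.73 ± 0.35 in log2 CPM (SD). After Day 90, 4 of the 17 tested genes of the list were called lower and 1 higher, where 18.5% of all tested genes were called lower and 14.0% higher. Besides EDAR, those called lower were the adaptor genes EDARADD (-0.63, SE 0.24), TRAF3 (-0.66, SE 0.16) and TRAF2 (-0.73, SE 0.13). TMM scaling, DESeq2 and the fit without a filter kept EDAR and TRAF2. NFKBIA, which encodes the inhibitor of NF-kappa B and is itself an NF-kappa B target, was called higher at 1.34 (SE 0.28, adjusted p = 6.41e-04). B cell markers, at a median of 271 CPM after Day 90 (47.8 to 910, n = 53) against 1411 CPM in control, T cell markers (1061 against 1539 CPM) and neutrophil markers (6321 against 2981 CPM) shifted in the same window, and their part in these changes was not tested.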

How the data were processed

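Blood samples of 28 rhesus macaques were measured by RNA sequencing. Per the labels and the paper's methods, the authors trimmed the reads with cutadapt (2.10), aligned them to Mmul_10 with STAR (2.7.6a) and counted them per gene with Subread's featureCounts (2.0.1); the deposited count table holds these raw counts for 21070 genes. The strand setting of the counting is not given in the sources used here. A second deposited table holds log2 values of 16730 genes, normalized by the authors, and served only as an alternative. Of its per-sample columns and those of the count table, 0 were left unused. Genes with 3 counts or more in 80% of the samples were tested (13751). Each sample's group came from its own labels.

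Counts were scaled by the upper quartile and fitted with edgeR (4.0.16, R 4.3.3), quasi-likelihood, with Benjamini-Hochberg adjustment over all tested genes. Genes were called where the adjusted p was no higher than 0.05 and the change 1.5-fold or more. CPM are counts for each 1000000 of the scaled total, and log2 CPM used a prior count of 2. For windows and for Day 30 to 60 counts were summed per animal. An SE is that of the fitted log2 fold change, taken from the F statistic. Each animal's samples were paired through its animal number in the labels, so that the animal was the block. Single values were compared between groups of animals with permutation tests in SciPy (1.17.1), exact for groups under 10, with 95% intervals of the difference from the pooled SD. The animal is the replicate in every test. Depth was 2840219 to 23638161 counts per sample, and 3 counts are the smallest number told from 0. The edgeR fit was tested on simulated counts.

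Named genes were, by rule, EDA2R, the 10 most and 3 least similar genes, the 6 p53 targets called on Day 3 with the largest fold and any called in all 3 windows, and called genes of the receptor list with EDA, EDAR, EDARADD and TNFRSF19. Outside this rule, p53 targets called in later windows (GADD45A, RPS27L, TP53INP1, MDM2, RRM2B, AEN and POLH) are named and were chosen after their values were seen. The gene, the lists and the tests were chosen with earlier results of these data known. Alternatives were TMM scaling, no filter, no replicate block, DESeq2 (1.42.0), the same library series as the control, a prior count of 0.5 and the deposited log2 values; comparisons of levels, in series C alone or on Day 30 alone, and fits that leave out each animal were added after seeing the data. Library series were read from sample numbers in the labels, whose meaning these do not give. PF4, a platelet marker, was not analysed here, so that the platelet list held 5 of 6 genes.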

Additional observations from a re-analysis of the deposited data

Results flagged for a closer look

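In 48 groups of 4 to 10 samples (dose by day, also split by sex), 3 held a sample that lay farther from the others than Dixon's 95% limit allows, where chance gives about 1 in 20. HD female B2502 stood low before irradiation, at 0.238 CPM (3 counts). LD female B1504 stood low on Day 30, at 0.242 CPM (1 count). LD male B1001 stood low on Day 90, at 0.144 CPM (1 count).

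The level of EDA2R differed between the dose groups in a test of the difference itself on Day 40, by -0.84 in log2 CPM (HD minus LD, 12 animals each, two-sided permutation test, adjusted p = 0.0152), and over Day 30 to 60, by -0.81 (28 animals, edgeR, adjusted p = 0.0301). Both compare levels, and both were added after the changes from control, which missed the threshold, had been seen.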

How the results depend on the processing

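Of 377 alternative values, 352 were judged the same as the reported one, by a rule for each kind of result. For tested results the rule was the same direction and side of the threshold. For changes from control, which have no test, it was the same sign and a shift under 1 SD over animals. For counts of genes it was a ratio of 1.5 or less, and for likeness the same sign. The rise of EDA2R up to Day 21 held under TMM scaling, without a filter, by DESeq2 and with the deposited log2 values. In the 4 animals with controls of the same series, all HD, the value turned to -0.63 on Day 30, to -0.33 on Day 40 and to -0.27 in the middle window. From Day 60 on and after Day 90 this alternative had too few animals to be run. Dose and series cannot be told apart in this turn, and its cause was not tested.

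Samples of 1 animal were paired by its number in the labels. Without the replicate block EDA2R stood at 2.73 on Day 3, 1.86 over Day 3 to 21, 0.40 in the middle window, 1.05 after Day 90, 1.42 on Day 120 and 1.77 on Day 150, and the interaction with dose on Day 30 to 60 at -0.89 (adjusted p = 0.321). There 463 genes were called higher and 77 lower in HD with the block and 6 and 0 without it, 555 and 43 with TMM, 489 and 47 without a filter, and 592 and 70 by DESeq2. Levels of all 28 animals gave -0.81 and passed the threshold, with 2.23% of genes called higher and 0.734% lower; they missed it in series C (-0.80, with 1.43% and 0.633%) and on Day 30 alone (-1.03, with 0 genes called by edgeR and 1117 at an unadjusted p under 0.05), and ranged from -0.92 to -0.72 when each animal was left out, with -0.72 (B1005) and -0.73 (B1506) past the threshold no longer. By day, the dose difference of Day 3 was 0.010 with a prior count of 0.5, and as a level it was -0.22 on Day 9 and -0.84 on Day 40, the last past the threshold.

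Leaving out each animal gave 0.60 to 1.13 on Day 120, 0.94 to 1.51 on Day 150, 0.18 to 0.63 on Day 180, -0.46 to 0.25 on Day 210 (above 0 without B1505, at 0.21 without B1003 and at 0.069 without B1502), -0.29 (without B2502) to 0.43 on Day 240, 0.55 to 1.20 on Day 270 and 0.64 to 0.98 after Day 90. Without a filter, 1 receptor gene was called higher on Day 3 (TNFRSF19) and 1 in the middle window (NFKB2), and over all genes 401 in place of 240 were called lower over Day 3 to 21 and 270 in place of 175 in the middle window. With TMM, DESeq2 or no block, 2 p53 targets were called higher in the middle window, the second being CDKN1A. TMM, DESeq2 and no filter left 2 receptor genes lower after Day 90, and no block gave 5. Counts of 0 to 19 per sample on Day 30 limit what could be told apart after Day 21.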
